A study of Homo sapiens with 27 samples.

Results

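Pseudouridine (Ψ) levels in the tRNA of TRUB1 knockout HEK293T cells were compared with those of wild-type (WT) HEK293T cells, a human embryonic kidney line. The 6 libraries used, of 27 in the series, were 2 treated and 1 untreated from TRUB1 KO cells and 2 treated and 1 untreated from WT cells. PUS1 KO and PUS7 KO cells, with 2 treated libraries each, served as further points of comparison. All of these groups are the same line, and all small RNA was demethylated with AlkB before treatment. The sites were those in the TRUB1 KO tables for cytosolic and mitochondrial tRNA, joined to WT by tRNA name and site, and a site was tested where each of the 4 treated libraries had at least 20 reads. Of 740 sites listed, 734 were tested: 701 of 705 in cytosolic tRNA and 33 of 35 in mitochondrial tRNA. At position 55 all 244 listed sites were tested, 238 cytosolic and 6 mitochondrial. The labels give the knockout by its gene alone, and neither the number of clones nor the guides are given in the sources used here. RNA of TRUB1 itself was not analysed here, so the knockout rests on its label.

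Ψ is an isomer of uridine made in RNA after transcription. TRUB1 is a human relative of bacterial TruB and yeast Pus4, the synthases known for Ψ at position 55 of the T loop of tRNA, where Ψ55 pairs with a base of the D loop and helps to hold the elbow of the folded tRNA. In human mRNA, TRUB1 is known for a motif that copies this loop, GUUC followed by any base and A. Other enzymes have the other tRNA positions: PUS1 is known for 27/28 and, in the anticodon of a few tRNAs, 34 and 36, PUS7 for 13 and 35, and PUS3 for 38/39. tRNAs with 1 anticodon are an isoacceptor, and those that share the anticodon but differ elsewhere are its isodecoders (tRNA-Glu-TTC-1, tRNA-Glu-TTC-2).

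The 6 mitochondrial tRNAs with a listed site at position 55 are printed because they show where the Ψ that fell in TRUB1 KO lies. Capitals mark the bases over which the deposited table places the deletion. The tRNA strand is given 5′ to 3′ with T for U, from the GENCODE transcripts on GRCh38, chromosome MT.
mt-TRNL1 (3230 to 3304, plus strand): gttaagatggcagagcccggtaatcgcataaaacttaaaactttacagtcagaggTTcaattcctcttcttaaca
mt-TRNS1 (7446 to 7514, minus strand): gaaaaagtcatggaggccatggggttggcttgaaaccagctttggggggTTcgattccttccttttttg
mt-TRNQ (4329 to 4400, minus strand): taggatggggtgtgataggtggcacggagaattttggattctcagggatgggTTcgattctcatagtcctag
mt-TRNP (15956 to 16023, minus strand): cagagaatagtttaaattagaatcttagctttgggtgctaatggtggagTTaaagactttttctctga
mt-TRNN (5657 to 5729, minus strand): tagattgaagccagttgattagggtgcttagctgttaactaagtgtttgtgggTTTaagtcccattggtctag
mt-TRNE (14674 to 14742, minus strand): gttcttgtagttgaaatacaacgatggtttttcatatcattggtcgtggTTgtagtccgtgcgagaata
The motif GTTCNA, searched on the tRNA strand, lay over the window in 3 of the 6 (mt-TRNL1, mt-TRNS1 and mt-TRNQ), and those 3 were the only ones of all 22 mitochondrial tRNAs to hold it anywhere. A run of T at the window means that a deletion at its first and at its second base cannot be told apart.

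PRAISE reads Ψ as a deletion left in the cDNA after a bisulfite-type treatment. The level of a site is the percent of the reads covering it that carry a deletion, in each treated library. Untreated libraries give the background without treatment. Median coverage of the listed sites was 23011 and 24711 reads in TRUB1 KO and 14202 and 14687 in WT for cytosolic tRNA, and 556 and 545 in TRUB1 KO and 444 and 656 in WT for mitochondrial tRNA. The labels call the libraries of a genotype technical replicates, so n = 2 throughout. In the main test p-values rest on the spread between such libraries, moderated across sites and never taken as less than counting error. Fisher's exact test, used as an alternative, sums the reads of the libraries of a genotype and leaves that spread out. Each site was tested two-sided with a quasi-binomial model moderated across sites (limma), with Benjamini-Hochberg adjustment over the whole table, and it counted as lower or higher when the adjusted p was under 0.05 and TRUB1 KO and WT differed by at least 10 percentage points.

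All 6 mitochondrial position 55 sites fell in TRUB1 KO, to between 0.550% and 10.2% in single libraries. Their mean level was 2.63% and 2.77% in the TRUB1 KO libraries, against 70.9% and 70.7% in the WT libraries. The mean was therefore 2.70% ± 0.0955 in TRUB1 KO and 70.8% ± 0.116 in WT (SD, n = 2 each), a difference of -68.1 points. Both knockout libraries were below both WT libraries, and the exact permutation test over the 4 libraries gave p = 0.333, the smallest that 2 against 2 allow. Over all 33 mitochondrial sites, 6 were called lower (18.2%), and these were the 6 at position 55. Both knockout libraries lay below both WT libraries at 17 of the 33, or 51.5%, among them all 6.

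The largest fall was in mt-TRNL1, one of the mitochondrial leucine tRNAs, with 2.75% and 3.33% in TRUB1 KO, against 94.5% and 94.6% in WT (adjusted p = 2.94e-11). In mt-TRNS1, a mitochondrial serine tRNA, the level was 9.10% and 10.2% in TRUB1 KO, against 89.0% and 90.1% in WT (adjusted p = 4.36e-12). It was the tRNA that kept most, 10.8% of its WT level. The glutamine tRNA mt-TRNQ had 1.49% and 1.34% in TRUB1 KO, against 68.9% and 67.7% in WT (adjusted p = 1.37e-09). The proline tRNA mt-TRNP had 0.680% and 0.617% in TRUB1 KO, against 64.8% and 66.1% in WT (adjusted p = 2.99e-15), and kept least, 0.991% of the WT level. The WT levels of the 6 thus differed by more than their replicate spread while the knockout levels of 5 of them lay under 4%.

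The asparagine tRNA mt-TRNN had 1.02% and 0.550% in TRUB1 KO, against 62.2% and 60.3% in WT (adjusted p = 2.71e-07). Its coverage was 491 and 545 reads in TRUB1 KO, against 74 and 68 in WT, the thinnest of the 6. The glutamate tRNA mt-TRNE had the lowest WT level, with 0.764% and 0.558% in TRUB1 KO, against 46.0% and 45.7% in WT (adjusted p = 2.94e-11).

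**Figure D1:**
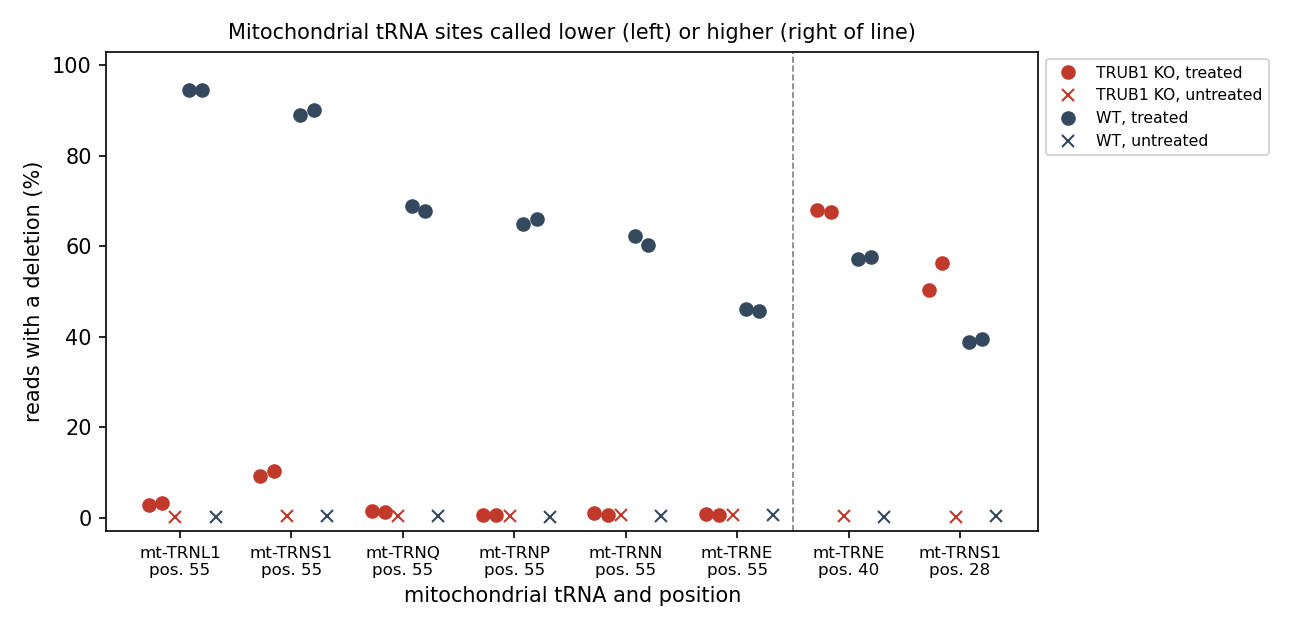
Levels (percent of reads with a deletion) in each library at the 6 mitochondrial position 55 sites and, right of the dashed line, at the 2 mitochondrial sites called higher. Dots are treated libraries and crosses untreated ones, red for TRUB1 KO and dark blue for WT. At position 55 the TRUB1 KO dots lie between 0.550% and 10.2%, the WT dots between 45.7% and 94.6%, and every cross there at or below 0.683%.

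What was left at position 55 was set against the untreated TRUB1 KO library by exact (Clopper-Pearson) 95% intervals, which cover counting error only. In mt-TRNS1 the lower bounds in TRUB1 KO were 8.20% and 9.32%, above the upper bound of 0.798% without treatment. The same held for mt-TRNL1, with lower bounds of 1.89% and 2.33% against an upper bound of 0.658%. In mt-TRNP, the deepest site with 31759 and 30327 reads, the lower bounds were 0.593% and 0.532%, against an upper bound of 0.437%. In mt-TRNS1 and mt-TRNL1 the remaining deletions thus stood several points above the untreated level. Whether they are Ψ was not tested, since an untreated library cannot show what treatment leaves at a site without Ψ. With 1 untreated library per genotype the spread between untreated libraries is not known, and the smaller gap in mt-TRNP rests on counting error alone.

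In mt-TRNQ, mt-TRNN and mt-TRNE the treated and untreated intervals of TRUB1 KO overlapped. An overlap of intervals is not a test of a difference, so a remainder was neither shown nor excluded at this depth. The upper bounds in TRUB1 KO reached 2.91% and 2.63% in mt-TRNQ, at most 2.36% in mt-TRNN, and 1.15% and 0.869% in mt-TRNE.

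At the other 27 mitochondrial sites none was lower, and 2 were higher (2 of 33 in all, 6.06%). Position 40 of mt-TRNE had 68.0% and 67.6% in TRUB1 KO, against 57.1% and 57.6% in WT, a difference of 10.5 points (SE 0.316, adjusted p = 2.06e-04). Position 28 of mt-TRNS1 had 50.2% and 56.2% in TRUB1 KO, against 38.8% and 39.4% in WT, a difference of 14.1 points (SE 2.98, adjusted p = 2.18e-04). At these 2 sites both knockout libraries lay above both WT libraries, which held at 4 of all 33 mitochondrial sites. The 2 sites called higher are in tRNAs whose position 55 fell. In those 6 tRNAs the other 10 sites changed by a median of 0.119 points, and in the other 9 mitochondrial tRNAs 17 sites changed by a median of -1.62 points with no call.

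In cytosolic tRNA the loss at position 55 was partial. The mean level over the 238 sites was 68.4% and 68.8% in the TRUB1 KO libraries, against 78.6% and 78.6% in the WT libraries. This is 68.6% ± 0.342 in TRUB1 KO and 78.6% ± 0.0486 in WT (SD, n = 2 each), a difference of -10.0 points that left 87.3% of the WT mean, against 3.81% left in mitochondrial tRNA. The difference of the changes, mitochondrial minus cytosolic, was -58.1 points, and both exact permutation tests again gave 0.333, the smallest p possible.

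Over all 701 cytosolic sites 78 were called lower (11.1%) and 3 higher (0.428%). Of the 78, 77 were at position 55, which is 77 of its 238 sites. Both knockout libraries lay below both WT libraries at 199 of the 238 sites at position 55, against 313 of all 701 cytosolic sites (44.7%). The fall at position 55 was thus spread over more sites than the 10-point threshold counts, and 117 of them passed at 5 points (18.8% of all 701 did) and 31 at 20 points (4.42% of all).

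The knockout level as a share of the WT level ranged from 12.1% to 110% over the 238 cytosolic sites, with a median of 92.2%, and from 0.991% to 10.8% over the 6 mitochondrial ones. The ranges did not overlap. At most 25% was left at 2 cytosolic sites, 25% to 50% at 10, 50% to 75% at 21 and 75% to 90% at 65. At 121 sites 90% to 100% was left, and at 19 the mean was above WT.

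**Figure D2:**
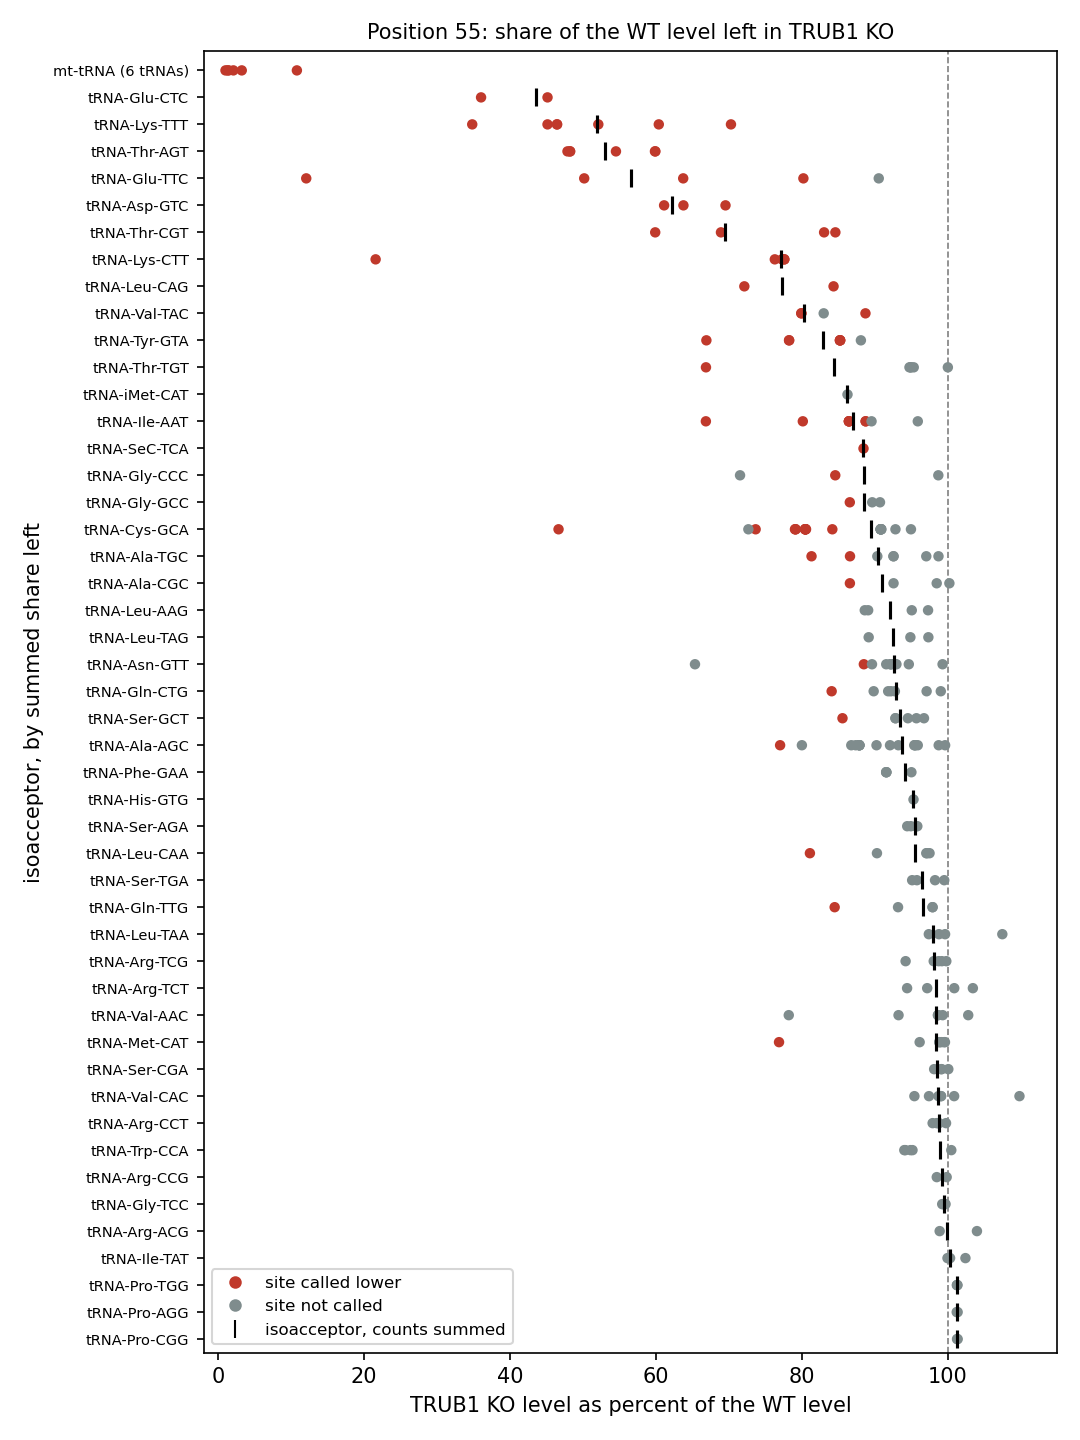
TRUB1 KO level at position 55 as a percent of the WT level (horizontal), by isoacceptor from the lowest share to the highest, with the 6 mitochondrial tRNAs on top. Each dot is 1 site, red where called lower and grey where not, and the black tick is the isoacceptor with its counts summed. Shares run from 43.6% in tRNA-Glu-CTC to 101% in the tRNA-Pro isoacceptors, and single sites of 1 isoacceptor can lie far apart, as in tRNA-Glu-TTC.

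The lowest share left was in tRNA-Glu-TTC-2, which had 9.97% and 10.0% in TRUB1 KO, against 82.7% and 83.0% in WT (12.1% left, adjusted p = 6.93e-08). Its coverage was 275823 and 304449 reads in TRUB1 KO and 126648 and 121462 in WT. In the other glutamate isoacceptor, tRNA-Glu-CTC-2 had 30.4% and 30.7% in TRUB1 KO, against 84.7% and 84.9% in WT (adjusted p = 2.48e-07). tRNA-Glu-CTC-1 had 36.3% and 38.5% in TRUB1 KO, against 82.7% and 83.1% in WT (adjusted p = 1.10e-05). In each of these the groups were far apart relative to the spread between libraries.

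The other large falls were in lysine, threonine and cysteine tRNAs and in a further glutamate tRNA. tRNA-Lys-TTT-6 had 28.03% and 29.8% in TRUB1 KO, against 83.3% and 82.9% in WT, and tRNA-Lys-TTT-1 had 38.5% and 39.3% in TRUB1 KO, against 86.2% and 86.3% in WT. tRNA-Thr-AGT-3 had 40.3% and 40.1% in TRUB1 KO, against 83.9% and 83.9% in WT. tRNA-Thr-AGT-1 had 39.3% and 39.5% in TRUB1 KO, against 81.7% and 81.7% in WT. For these 4 sites and tRNA-Glu-TTC-14, which had 43.5% and 43.2% in TRUB1 KO, against 86.3% and 86.6% in WT, adjusted p was 3.64e-05 or less.

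At 2 thinly covered sites the falls were also near 40 points. tRNA-Lys-CTT-5 had 12.7% and 9.87% in TRUB1 KO (521 and 537 reads), against 53.6% and 50.9% in WT (110 reads in the first library), with an adjusted p of 0.00522. Without the first WT library its adjusted p was 0.0776, and without the second 0.0699, so its call rests on having both. tRNA-Cys-GCA-23 had 34.5% and 34.2% in TRUB1 KO, against 75.7% and 71.5% in WT (adjusted p = 9.23e-04).

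At the other end were sites with a high WT level and almost no change. tRNA-Thr-TGT-3 had 75.9% and 76.0% in TRUB1 KO, against 75.9% and 76.1% in WT, a difference of -0.0192 points (SE 0.0889). tRNA-Ser-CGA-3 had 87.6% and 87.9% in TRUB1 KO, against 87.8% and 87.6% in WT. tRNA-Ile-TAT-1 had 89.5% and 90.2% in TRUB1 KO, against 90.3% and 89.6% in WT. The groups overlapped in these, and the same small differences, -0.172 to 0.139 points, were found in tRNA-Ala-CGC-4 and tRNA-Arg-CCG-2. Adjusted p at these 5 sites was 0.736 to 0.982.

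With counts summed over the isodecoders of each of the 47 isoacceptors, 15 were lower (31.9%) and 0 higher (0.0%), and at a threshold of 5 points 24 were lower (51.1%), at 20 points 7 (14.9%). The share left ranged from 43.6% to 101% with a median of 93.4%, and 21 isoacceptors lay within 5% of their WT level. Among the 44 with at least 2 sites, the lowest were those for glutamate, lysine, threonine and aspartate.

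tRNA-Glu-CTC had 35.3% and 37.1% in TRUB1 KO, against 82.9% and 83.3% in WT (43.6% left, adjusted p = 7.11e-09). tRNA-Lys-TTT had 41.2% and 41.6% in TRUB1 KO, against 79.8% and 80.0% in WT (51.9% left), and was lower at 7 of 7 sites. tRNA-Thr-AGT had 43.6% and 43.7% in TRUB1 KO, against 82.5% and 82.5% in WT (52.9% left), and was lower at 6 of 6 sites. So in these isoacceptors every isodecoder tested was called.

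tRNA-Glu-TTC had 49.3% and 49.2% in TRUB1 KO, against 86.8% and 87.2% in WT (56.6% left). tRNA-Asp-GTC had 58.3% and 59.0% in TRUB1 KO, against 94.2% and 94.4% in WT (62.2% left), and was lower at 3 of 3 sites. tRNA-Thr-CGT had 58.3% and 57.8% in TRUB1 KO, against 83.7% and 83.6% in WT (69.4% left). Adjusted p was 7.11e-09 or less in these 6 isoacceptors, and no library of TRUB1 KO overlapped one of WT.

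The 6 with the highest shares kept 99.5% to 101%. tRNA-Gly-TCC had 90.2% and 90.2% in TRUB1 KO, against 90.7% and 90.6% in WT, and tRNA-Ile-TAT had 87.1% and 87.8% in TRUB1 KO, against 87.5% and 87.0% in WT. tRNA-Arg-ACG was low in both, with 34.5% and 33.6% in TRUB1 KO, against 33.5% and 34.7% in WT. The 3 proline isoacceptors stood a little above WT, as tRNA-Pro-CGG, with 55.8% and 55.8% in TRUB1 KO, against 55.2% and 54.9% in WT. Their differences were 0.691 to 0.707 points with adjusted p of 0.00911 to 0.0171, under the 10-point threshold. Of 7 proline sites, 5 had coverage within 1% of another site in all 4 libraries and may share reads, so they are not separate measurements. The other 32 isoacceptors kept 77.1% to 99.2% with a median of 93.6%.

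Isoacceptors of 1 amino acid were compared for their change (first minus second, in points), a test added after the data had been seen. Of 45 pairs within 12 amino acids, 12 differed by at least 10 points at an adjusted p under 0.05 (26.7%), and 30 passed on adjusted p alone (limma on the differences per library, adjusted over the 45). In threonine, with counts summed over isodecoders, the anticodons ranked AGT, CGT and TGT. Single sites overlapped, as they kept 59.9% to 84.6% in tRNA-Thr-CGT and 66.8% to 100.0% in tRNA-Thr-TGT. Only 1 of 6 sites was called in tRNA-Thr-TGT. tRNA-Thr-AGT changed by -38.8 points and tRNA-Thr-TGT by -11.8, a difference of -27.1 (95% interval -27.6 to -26.5, adjusted p = 3.9e-05). tRNA-Thr-CGT lay between, the difference being -13.2 points for tRNA-Thr-AGT minus tRNA-Thr-CGT and -13.8 for tRNA-Thr-CGT minus tRNA-Thr-TGT.

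In lysine, tRNA-Lys-TTT changed by -38.5 points and tRNA-Lys-CTT by -19.9, a difference of -18.5 (95% interval -19.0 to -18.0). In leucine, tRNA-Leu-CAG stood apart from all 4 others: it changed by -20.6 points, against -1.94 in tRNA-Leu-TAA, a difference of -18.7 (95% interval -19.6 to -17.8), and it differed by -14.4 to -16.8 from the other 3. In valine, tRNA-Val-TAC changed by -17.7 points, against -1.09 in tRNA-Val-AAC and -1.11 in tRNA-Val-CAC. The last 2 differed from each other by -0.0169 points (95% interval -0.930 to 0.896). With counts summed over isodecoders, these 4 amino acids thus each held an isoacceptor whose position 55 fell much further than that of another.

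In isoleucine, tRNA-Ile-AAT changed by -12.0 points and tRNA-Ile-TAT by 0.184, a difference of -12.1 (95% interval -13.2 to -11.1). In glycine, tRNA-Gly-CCC and tRNA-Gly-GCC changed by -10.9 and -10.4 points, against -0.443 in tRNA-Gly-TCC. The difference from tRNA-Gly-TCC passed the threshold for tRNA-Gly-CCC, at -10.4 points, and missed it for tRNA-Gly-GCC, at -9.97 points. Only 1 of 3 sites was called in tRNA-Gly-CCC, where single sites kept 71.5% to 98.7%. In tRNA-Gly-GCC it was also 1 of 3, and the sites kept 86.5% to 90.7%. Glutamate differed less, by -9.13 points between tRNA-Glu-CTC and tRNA-Glu-TTC (95% interval -11.8 to -6.45), which is under the threshold. Among arginine isoacceptors no pair reached it, their 95% intervals lying between -4.20 and 1.69 points.

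**Figure D3:**
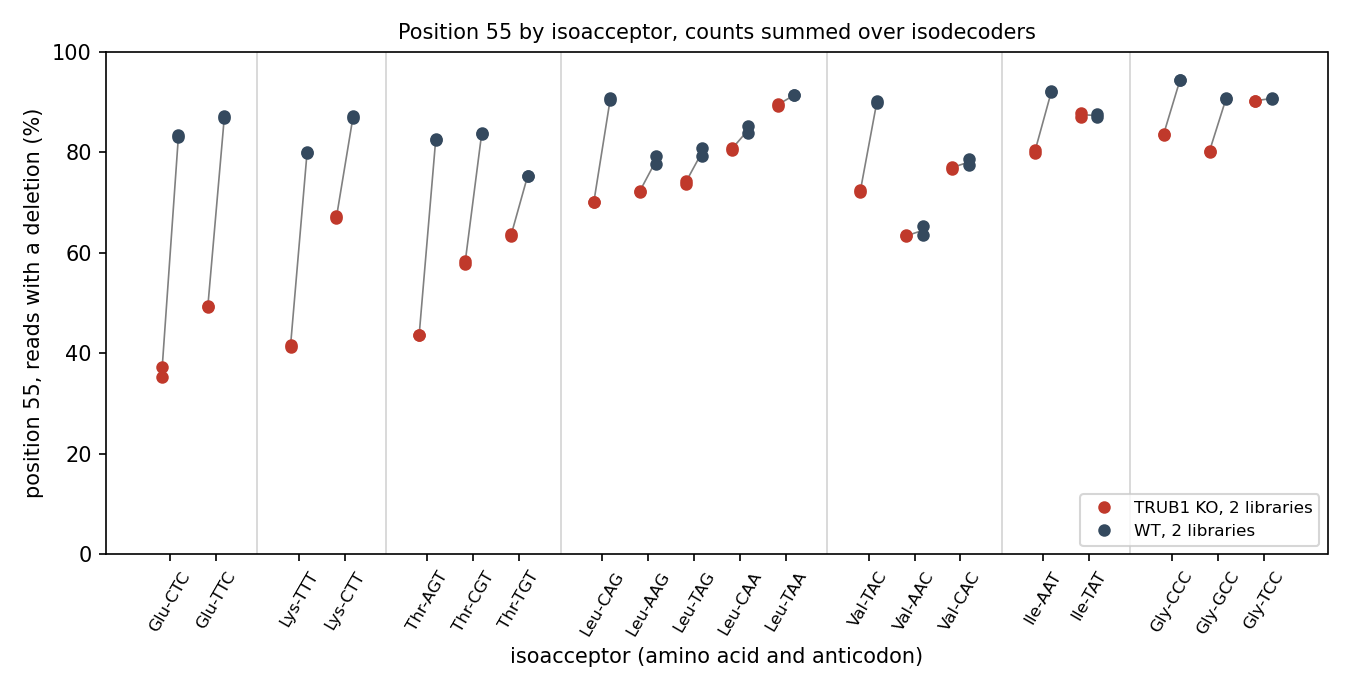
Position 55 levels, in percent of reads with a deletion, for the isoacceptors of 7 amino acids with counts summed over isodecoders. In each pair the red dots on the left are the 2 TRUB1 KO libraries and the dark blue dots on the right the 2 WT libraries. Steep lines stand beside flat ones within 1 amino acid, as tRNA-Val-TAC at 71.97% and 72.5% in TRUB1 KO against 90.1% and 89.7% in WT beside tRNA-Val-CAC at 76.7% and 77.1% in TRUB1 KO against 78.6% and 77.4% in WT.

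Isodecoders of 1 isoacceptor also differed in how much was left. Of the isoacceptors with at least 2 sites, 17 had some but not all of their sites called, 7 had all called, and of all 47, 22 had none. The widest spread was in tRNA-Glu-TTC, where the share left ran from 12.1% in tRNA-Glu-TTC-2 to 90.5% in tRNA-Glu-TTC-1. Position 55 of tRNA-Glu-TTC-1 had 80.1% and 80.3% in TRUB1 KO, against 88.4% and 88.8% in WT. In tRNA-Cys-GCA, 12 of 22 sites were called, and the share left ran from 46.6% in tRNA-Cys-GCA-23 to 94.9% in tRNA-Cys-GCA-4.

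In tRNA-Thr-TGT, 1 of 6 sites was called: tRNA-Thr-TGT-1 had 57.4% and 57.3% in TRUB1 KO, against 86.0% and 85.6% in WT (adjusted p = 7.55e-07), while the other 5 kept 94.7% to 100.0%. The changes of those 5 were -4.03 to -0.0192 points. In tRNA-Asn-GTT, 1 of 11 was called, and the lowest share, 65.3% in tRNA-Asn-GTT-24, was not: it had 52.5% and 50% in TRUB1 KO, against 73.2% and 83.6% in WT (71 and 61 reads), with an adjusted p of 0.0802. This site was called lower by limma on percentage points (adjusted p = 0.0137) and on log odds (adjusted p = 0.0193), by Fisher's exact test on summed counts (adjusted p = 5.84e-07), after background subtraction (adjusted p = 0.0137) and in one fit over 4 genotypes (adjusted p = 0.0365). Its untreated level was 13.8% in TRUB1 KO and 13.6% in WT. Around the 10-point threshold, tRNA-Val-TAC-3 was just inside, with 78.4% and 78.6% in TRUB1 KO, against 88.8% and 88.3% in WT. tRNA-Asn-GTT-7 was just outside, with 84.4% and 85.1% in TRUB1 KO, against 94.6% and 94.6% in WT.

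How sharply a site can be placed limits the result. The deletion was placed over 2 bases at 221 of the 238 cytosolic sites, over 3 at 3 and over 1 at 14. None of the 14 was called, and they kept 78.2% to 99.2% (median 87.8%), against a median of 92.6% at the 224 longer windows, of which 77 were called. In the longer windows a deletion at position 54, a base known in some human tRNAs as a Ψ made by PUS10, cannot be told apart from one at position 55. At 60 of the 238 sites, coverage was within 1% of that of another site in all 4 libraries, and such isodecoders may share reads.

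The ratio of coverage, TRUB1 KO over WT, had a median of 1.62 over the 701 cytosolic sites (range 0.576 to 8.10) and of 1.22 over the 33 mitochondrial sites (range 0.456 to 7.30). At position 55 the median ratio was 1.75 at the 77 cytosolic sites called lower (range 1.26 to 4.72) and 1.66 at the 161 not called (range 1.08 to 2.68). It was 2.20 at the 6 mitochondrial sites, with 7.30 in mt-TRNN. Across the 238 sites, which share their libraries, the change of level and this ratio had a Spearman rho of -0.287 and a Pearson r of -0.382. The part of coverage in the result was not tested. The median untreated level at cytosolic position 55 was 0.524% in TRUB1 KO and 0.524% in WT.

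Away from position 55, few cytosolic sites were called. At positions 27/28, the sites known for PUS1, 0 were lower and 3 higher of 131. The 3 were at position 27 of tRNA-Lys-TTT isodecoders whose position 55 had fallen. tRNA-Lys-TTT-3 had 64.1% and 66.1% in TRUB1 KO, against 54.7% and 53.9% in WT (adjusted p = 0.00156). tRNA-Lys-TTT-4 had 59.6% and 59.8% in TRUB1 KO, against 49.5% and 49.3% in WT (adjusted p = 0.00212). tRNA-Lys-TTT-5 had 62.8% and 65.3% in TRUB1 KO, against 52.7% and 52.0% in WT (adjusted p = 0.00205). Both knockout libraries were above both WT libraries in all 3. The same held at 29 of the 46 sites at position 27 and at 177 of all 701 cytosolic sites.

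The other 3 tRNA-Lys-TTT isodecoders listed at position 27 were not called. Their differences were 1.63 points in tRNA-Lys-TTT-1, 1.45 in tRNA-Lys-TTT-2 and 2.59 in tRNA-Lys-TTT-6, although the last had a larger fall at position 55 than any of the 3 that rose. Without the first TRUB1 KO library 6 cytosolic sites were higher in place of 3. Without the second, tRNA-Lys-TTT-3 was not called, at 9.78 points.

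At positions 38/39, 1 of 137 sites was lower and 0 higher, while limma on percentage points gave 4 lower and 1 higher, and summed counts with Fisher's exact test gave 3 lower and 1 higher. tRNA-Asn-GTT-9 had 33.1% and 33.9% at position 39 in TRUB1 KO, against 46.1% and 45.1% in WT (adjusted p = 0.00797). Without either WT library this call was lost, with adjusted p of 0.113 and 0.0868. In TRUB1 KO the site was 12.6 points higher than in PUS1 KO, and its difference from PUS7 KO was -5.55 points (adjusted p = 0.104).

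No site was called in either direction at position 13 (49 sites, the median change being 1.02 points), 35 (11 sites, 1.57 points), 30 to 32 (24 sites, -1.07 points) or 20 (32 sites, -0.222 points). At an unadjusted p under 0.05 there were 6, 2, 1 and 18 sites at these positions. Elsewhere the same cut passed 38 of 131 sites at positions 27/28 and 27 of 137 at 38/39. It passed 7 of 24 at e1/e12, 1 of 9 at 72 and 0 of 12 at 40. At e1/e12, 72 and 40 neither limma nor Fisher's exact test called any (0 at each position). At position 50, in the T stem, 0 of 10 sites were called, with a median change of -3.19 points. Both knockout libraries lay below both WT libraries at 9 of the 10. The same held at 313 of all 701 cytosolic sites (44.7%), and at 114 of the 463 away from position 55 (24.6%). Of the 10 sites at position 50, 7 had an unadjusted p under 0.05, and limma and Fisher's exact test each called 1 lower. For instance, tRNA-Arg-CCT-4 had 66.1% and 66.2% at position 50 in TRUB1 KO, against 73.2% and 72.6% in WT (adjusted p = 1.50e-04, a change of -6.71 points).

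Of the 77 cytosolic tRNAs whose position 55 was called lower, 65 had other tested sites, 116 in all, of which 0 were lower and 3 higher, with a median change of 0.149 points. Of the 161 tRNAs whose position 55 was not called, 146 had other tested sites, 330 in all, of which 1 was lower and 0 higher, with a median change of 0.564 points. The difference between these medians was not tested.

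**Figure D4:**
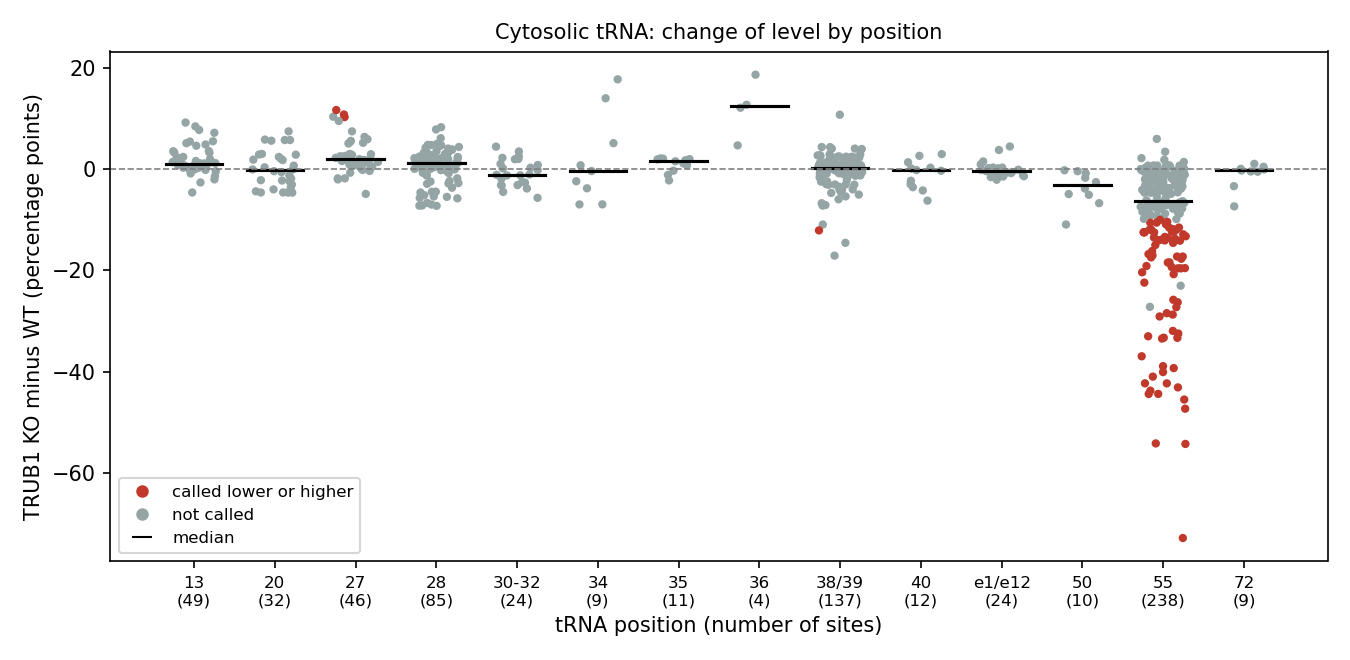
Change of level (TRUB1 KO minus WT, percentage points) at the cytosolic sites of the positions shown, with the number of sites in brackets. Sites at other positions are left out. Red dots were called, grey dots were not, and black lines are medians. Position 55 alone reaches below -20 points and its median is -6.23, whereas the median is 1.02 at position 13 and -3.19 at position 50.

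The lower levels at position 55 were also found against the other knockouts. Mean cytosolic levels at position 55 were 68.6% ± 0.342 in TRUB1 KO, against 79.0% ± 0.226 in PUS1 KO and 79.8% ± 2.39 in PUS7 KO (SD, n = 2 each). Mitochondrial means were 2.70% ± 0.0955 in TRUB1 KO, against 75.5% ± 0.864 in PUS1 KO and 72.6% ± 2.61 in PUS7 KO. With PUS1 KO as the comparison, 82 of the 238 cytosolic and 6 of the 6 mitochondrial sites at position 55 were lower in TRUB1 KO, where 19.4% of all cytosolic and 24.2% of all mitochondrial sites were lower. With PUS7 KO the counts at position 55 were again 82 and 6, and the shares of all sites were 15.0% and 18.2%.

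In the authors' deposited table, 28 cytosolic sites carry the label TRUB1-dependent, 13 of them at position 55, and 13 of the 28 were called lower here. A further 65 sites called lower here are labelled independent in that table. The weakest change among the sites that the authors' deposited table labels dependent is a loss of 0.504 of the WT level (-0.504), and the strongest among the independent is -0.483. Of the mitochondrial sites, 6 are labelled dependent in the authors' deposited table, and these are the 6 at position 55 called here.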

How the data were processed

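Small RNA of HEK293T cells was measured by PRAISE. Per the file headers, the authors deposited counts per site and library, namely reads with a deletion and reads covering it. Their change column, also deposited, is of another (other) kind, a signed share of the WT rate, and it and the authors' label were used only to describe their list. Per the submitters' processing notes, GRCh38, SAMtools 1.14, BWA, UMI-tools 1.0.0 and cutadapt were used. How deletions were counted and how sites were chosen is not given in the sources used here, and a site present in the knockout alone could not be seen.

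From these counts, levels were computed per library. A quasi-binomial model with dispersions moderated across sites (limma 3.58.1 in R 4.3.3, dispersion kept at 1 or more) was fitted to cytosolic sites, mitochondrial sites and isoacceptors in turn. Means used exact permutation tests over libraries (SciPy 1.17.1), two-sided. The model was tested on simulated counts. With fewer reads, as in mitochondrial tRNA (medians of 444 to 656 per treated library), intervals are wider. The exact (Clopper-Pearson) intervals cover counting error only, while those of the isoacceptor pairs rest on the moderated spread between libraries (limma). Members and lists were chosen with earlier results of these data known. Sites were named by rule: all mitochondrial position 55 sites, all sites called elsewhere, the 10 largest called falls at cytosolic position 55 with at most 2 per isoacceptor, the 5 smallest changes with a WT level of at least 50%, the 6 isoacceptors at each end, the 4 isoacceptors with the widest range of share left among those with some but not all sites called, and the sites at the threshold. Position groups 34, 36 and 54 belong to the same rule, and position 54 has 0 sites. Alternatives were other tests, read minimums of 10 and 100, thresholds of 5 and 20 points, other comparison genotypes, background subtraction, and leaving out each library. snRNA, snoRNA and cells other than WT, TRUB1 KO, PUS1 KO and PUS7 KO were not analysed here.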

Additional observations from a re-analysis of the deposited data

How the results depend on the processing

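At a threshold of 5 points, 132 cytosolic sites were lower (117 at position 55) and 10 higher, and 24 isoacceptors were lower. At 20 points the counts were 31 lower, 31 at position 55, 0 higher, 0 higher in mitochondrial tRNA and 7 isoacceptors. Higher cytosolic sites were 9 by limma on percentage points, 9 by limma on log odds, 10 by Fisher's exact test on summed counts, 9 after background subtraction and 5 in one fit over 4 genotypes, against 3. With PUS1 KO as the comparison 136 cytosolic sites were lower and 118 higher, and 11 mitochondrial sites were higher. With PUS7 KO 85 cytosolic sites were higher. Those comparisons also hold the other knockout's own losses. Leaving out each library gave 70 to 80 cytosolic sites lower, 2 to 6 higher, 70 to 79 lower at position 55, 6 lower and 2 higher mitochondrial sites, and 15 isoacceptors. The mean change at position 55 was then -10.2 to -9.76 points in cytosolic and -68.2 to -68.0 in mitochondrial tRNA. Position 39 of tRNA-Asn-GTT-9 reversed to 12.6 points higher against PUS1 KO, and the cause was not tested. Of 542 values for the 34 named sites, 514 kept direction and call, 16 lost the call, 11 gained it and 1 reversed. The correlation of deviations between same-numbered libraries was -0.138 over 701 cytosolic and -0.468 over 33 mitochondrial sites. With n = 2 per genotype this cannot show whether same-numbered libraries were prepared together, and the main test did not pair them. With the replicate number as a block, 76 cytosolic sites were lower (75 at position 55) and 3 higher, 6 mitochondrial sites were lower and 2 higher, and 15 isoacceptors were lower, and crossing the numbers gave the same counts. Of the 6 mitochondrial position 55 sites mt-TRNN was the thinnest, with 74 and 68 WT reads, and cytosolic position 55 sites went down to 45 and 31 WT reads.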

Other observations

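At position 36 of tRNA-Arg-TCT, a position known for PUS1, none of 4 sites was called. Both TRUB1 KO libraries lay above both WT libraries at all 4, and at 177 of all 701 cytosolic sites. The highest was tRNA-Arg-TCT-5, with 31.3% and 31.3% in TRUB1 KO, against 13.1% and 12.1% in WT (61 reads in the first WT library, adjusted p = 0.104). Of the 4, 3 had an unadjusted p under 0.05, and 3 were higher by Fisher's exact test and by limma alike. At position 34, tRNA-Ile-TAT-1 had 37.8% and 37.2% in TRUB1 KO, against 21.9% and 25% in WT (adjusted p = 0.106). tRNA-Ile-TAT-3 had 54.6% and 56.7% in TRUB1 KO, against 33.9% and 41.9% in WT (adjusted p = 0.208). Of 9 sites at position 34, 0 were called, 5 had an unadjusted p under 0.05, and limma and Fisher's exact test each called 2 higher. An unadjusted p under 0.05 was also found at 38 of 131 sites at positions 27/28 and at 27 of 137 at 38/39. The tRNA-Ile-TAT and tRNA-Arg-TCT sites were chosen after their values were seen.

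Position 28 of tRNA-Cys-GCA supplies 12 of the 28 cytosolic sites that the authors' deposited table labels TRUB1-dependent. Their levels were 1.55% to 3.58% in TRUB1 KO and 6.15% to 9.99% in WT. The change was -7.24 to -2.88 points, 11 of the 12 had an adjusted p under 0.05 by the moderated quasi-binomial test (limma), and none reached 10 points. Coverage was 6.80 to 8.10 times that of WT at these 12 sites, against a median ratio of 1.62 over all 701 cytosolic sites, of which 17 had a ratio over 3. Untreated levels were 0.411% to 0.955% in TRUB1 KO and 0.0388% to 0.122% in WT at the same sites. At the other 4 tRNA-Cys-GCA sites at position 28 the coverage ratio was 1.23 to 1.62 and 89.0% to 106% of the WT level was left. The part of coverage in the fall was not tested.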
